A study of Homo sapiens with 16 samples.

Results

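The genes described here lay on the same side of an empty vector in every library of a wild-type construct and in every library of its T164A mutant. A gene was taken when all 10 construct libraries lay above, or all below, the 6 vector libraries, when both construct group means differed from the vector mean by at least 1 log2 unit in the same direction, and when the larger mean of each comparison was at least 6. Of 20166 gene symbols measured, 432 (2.14%) were higher and 57 (0.283%) were lower in both construct groups. Because the rule used the values against the vector, those values are given as a description and carry no test. The rule did not use the direct comparison of the wild-type and T164A libraries, and that comparison is tested. The cuts against the vector still bear on the direction it can take among members.

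Poly-A RNA was sequenced from RWPE1, an established line of human prostate epithelium immortalised with papillomavirus genes. All cells carried an altered pTRIPZ vector, which was empty in 6 libraries (vector 1 to 6), held the wild-type construct in 6 (wild type 13 to 18) and held the T164A mutant in 4 (T164A 91 to 94). Whether the libraries within a group came from separate cultures is not said in the labels, so each p-value reflects library-to-library spread alone, and that spread may be technical. Culture, induction, time after transduction and the number of clones are not given in the sources used here. Values are the deposited log2 values, on which 1 unit is a factor of 2 and the level of 3 reads is at 2.30 on average. Library depth, estimated from the spacing of the values, was 12300000 to 19200000 reads. Where a group mean lay below the level of 3 reads, a difference is given as a bound against that level.

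Prostate epithelium has a basal layer, marked by keratins KRT5 and KRT14 and the transcription factor TP63, and a luminal layer of secretory cells that depend on androgens. Basal cells in culture can also take the squamous route of skin and oesophagus, in which small proline-rich (SPRR) proteins, S100 proteins and protease inhibitors build and guard a cornified envelope. Cancer-testis antigens are genes normally silent outside the germ line that are switched on in many tumours and tumour lines.

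The basal keratin KRT5 stayed high in all groups. It was at 16.91 to 17.18 in vector, 16.26 to 16.72 in wild type and 15.29 to 15.63 in the T164A libraries. Limma called 22 of 28 basal genes lower and 3 higher in wild type, and 16 lower and 7 higher in T164A, against vector. Over all symbols the shares were 24.5% and 21.0%, and 27.2% and 37.1%, in the same order. TP63 differed from vector by -0.64 in wild type and -1.30 in T164A, and KRT14 by -0.60 and -0.21. The epithelial genes CDH1 and EPCAM differed by 0.08 and 0.22 in wild type and by -2.12 and -1.25 in T164A. Other markers set the groups apart. The luminal proteins KLK3 (14.35 to 15.50) and FOLH1 (12.85 to 13.85) were high in every wild-type library. In the T164A libraries the KLK3 mean was below the level of 3 reads and FOLH1 was at 4.18 to 4.70. Of 11 single-copy Y-linked genes, limma called 10 higher in wild type than in vector (21.0% of all symbols were). The log2 of the summed level of the 11 was 12.54 to 13.48 in wild type. It was 8.38 to 8.70 in vector and 5.95 to 6.47 in the T164A libraries. IRS4, an insulin receptor substrate, was at 13.57 to 13.67 in the T164A libraries and below the level of 3 reads in the others, and the mesenchymal filament VIM was at 12.27 to 12.36 against 7.14 to 8.06 in vector. Vector 3, 4 and 6 held KLK3 at 3.76, 4.19 and 3.47, while the other 3 vector libraries were at 0.01 to 1.08. An effect of the construct and the presence of other cells cannot be told apart in either group, and in bulk RNA neither can fewer cells of a type and less RNA per cell. Both differences from the vector share its 6 libraries.

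Genes higher in both construct groups were led by genes that were near silent in the vector. For 160 of the 432 both differences were at least 2 log2 units, for 85 at least 3, for 54 at least 4 and for 15 at least 6. In 38 the vector mean lay below the level of 3 reads. The median difference from vector was 1.81 in wild type and 2.33 in the T164A libraries, the same with genes under the level of 3 reads at their bound, and over all symbols it was -0.05 and 0.11. The gap between the highest vector library and the lowest construct library ran from 0.07 to 7.34, with a median of 0.95.

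The first rank belonged to PRAME, a testis antigen that serves as substrate receptor of a ubiquitin ligase. In vector it lay between -1.37 and 1.60 (median -0.29), in wild type between 8.94 and 10.03 (median 9.82) and in the T164A libraries at 10.57, 10.50, 10.44 and 10.48. No vector library reached the level of 3 reads, and every T164A library was above every wild-type library. PRAME was higher than the vector floor by at least 7.39 in wild type and at least 8.20 in T164A. The direct difference, wild type minus T164A, was -0.81 (SE 0.40, limma adjusted p = 0.0834), and a fit without the scattered vector values gave the same difference with adjusted p = 6.4e-05. Without vector 3 alone the limma adjusted p was 0.0289. The X-linked cancer-testis antigens MAGEA3 and MAGEA6 differed from PRAME in their order. MAGEA3 was at 8.28 to 9.31 (median 9.08) in wild type and at 7.74, 7.72, 7.52 and 7.55 in the T164A libraries, with no vector library above 1.56. All wild-type libraries were above all T164A libraries, by 1.34 on average (SE 0.36, limma adjusted p = 0.00197). MAGEA6 was at 7.98 to 8.91 (median 8.63) in wild type and at 7.70, 7.31, 7.41 and 7.57 in the T164A libraries. Its difference of 1.06 had a limma adjusted p of 0.0541 with all libraries and of 1.63e-06 without the vector values, and it was 0.0227 to 0.043 without any 1 of vector 1, 2, 3 and 5 and wild type 14. These 2 genes are near-identical copies, so how reads were shared between them is uncertain. MAGEE1, a more distant relative, went from a vector median of 5.07 to 6.97 in wild type and to between 6.52 and 6.76 in the T164A libraries. Of 25 cancer-testis antigens listed, these 4 met the rule, 20 had a vector mean below the level of 3 reads, and against the vector limma called 10 higher in wild type and 13 in the T164A libraries (over all genes 21.0% and 37.1% were called higher).

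**Figure D1:**
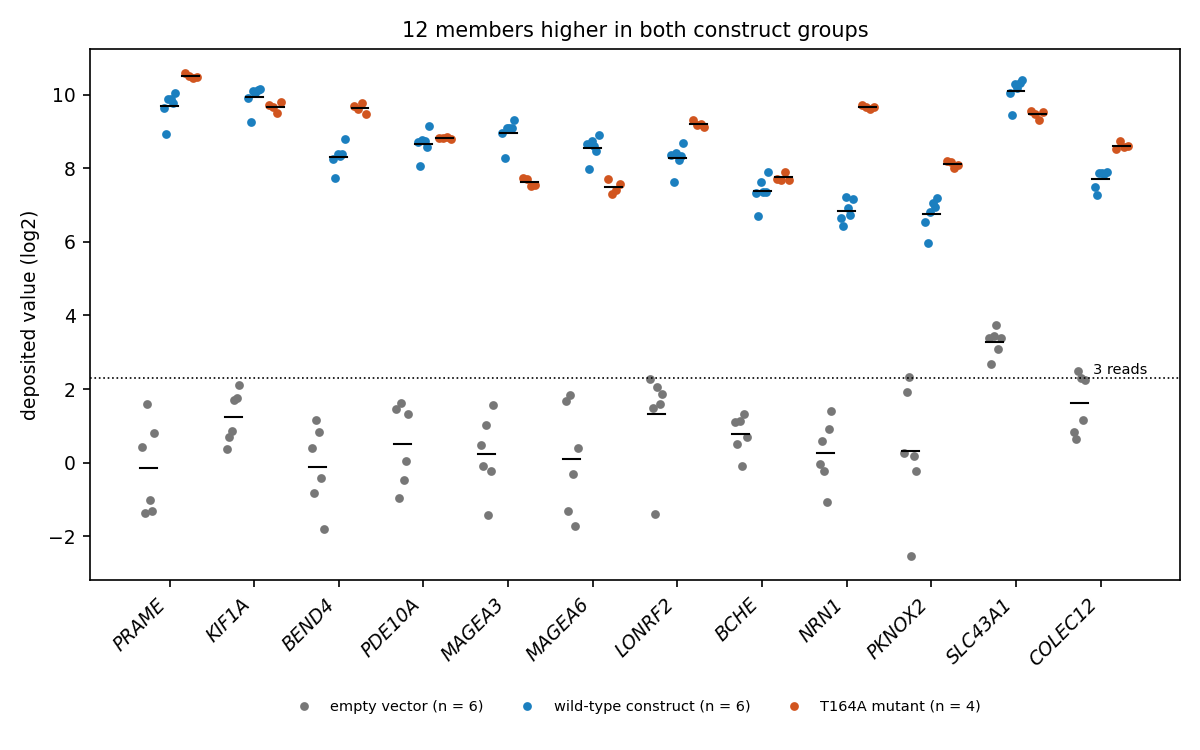
Deposited log2 values of the 12 named higher members with the largest smaller difference from the vector, one point per library, with group means as black lines and the level of 3 reads dotted. Except for SLC43A1, the vector means lie below the dotted line, while no construct library is under 5.96.

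HOXB13, a homeodomain factor of the prostate, lay at 2.80 to 4.04 in vector (median 3.45), at 10.34 to 11.34 in wild type (median 11.14) and at 7.96 to 7.98 in the T164A libraries. The 3 groups did not overlap. STEAP2, a gene for a metalloreductase of prostate cells, and its relative STEAP1 were higher than vector by 7.54 and 6.02 in wild type. In the T164A libraries they were higher by 2.59 and 1.88. STEAP2 read 8.45, 8.71, 8.95 and 8.67 in the T164A libraries and 13.06 to 13.98 in wild type, against 5.65 to 6.31 in vector. GATA2, a zinc finger transcription factor, was 2.73 and 1.82 above vector. RAB3B, a GTPase of secretory vesicles, stood at 9.37 to 10.13 in wild type (median 9.88) and at 9.61, 9.47, 9.77 and 9.71 in the T164A libraries, so the construct groups overlapped. Its direct difference was 0.19 (SE 0.11, limma adjusted p = 0.132), which became 0.28 with adjusted p = 0.00664 without wild type 14, and it was also called under quantile normalization (0.0083) and with array weights (0.00659). Of 29 luminal genes measured, 7 met the rule as higher, 5 of them named here, and 1, STEAP4, as lower. Limma called 26 higher in wild type than vector (21.0% of all symbols were), and in the T164A libraries 16 higher and 9 lower (37.1% and 27.2% of all symbols).

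Members of the androgen response list did not share 1 order. ADAMTS1, a secreted protease that cleaves proteoglycans, was at 5.36 to 5.83 in vector (median 5.51), at 10.81 to 11.80 in wild type (median 11.51) and at 11.48, 11.36, 11.37 and 11.36 in the T164A libraries. The construct groups overlapped, and the 95% interval of their difference was -0.21 to 0.32. ABCC4, an exporter of cyclic nucleotides, lay at 11.62 to 12.54 in wild type and at 9.65 to 9.83 in the T164A libraries, a difference of 2.48 (SE 0.11, limma adjusted p = 3.39e-16). SORD, which converts sorbitol to fructose, was likewise higher in wild type, by 1.36 (SE 0.11). RHOU, a small GTPase, had the reverse order, with a direct difference of -1.10 (SE 0.14, adjusted p = 2.14e-07 by limma). ZBTB10, a zinc finger repressor, was the remaining 1 of the 5 members among 28 measured. In the list as a whole 15 genes were called higher and 11 lower in wild type, and 12 higher and 16 lower in the T164A libraries, against the vector. Over all symbols the shares were 21.0% and 24.5% in wild type and 37.1% and 27.2% in T164A.

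Several of the largest differences were in genes known from axons and synapses. KIF1A, a kinesin that carries synaptic vesicle precursors, lay at 0.36 to 2.10 in vector (median 1.27), at 9.25 to 10.14 in wild type (median 10.06) and at 9.73, 9.67, 9.51 and 9.79 in the T164A libraries. Wild type and T164A overlapped, with an interval of -0.26 to 0.77 for their difference. The axonal kinesin KIF5C was higher in wild type, by 1.23 (SE 0.21, limma adjusted p = 9.28e-06). MAPT, the microtubule protein tau, was at 7.17 to 8.14 in wild type (median 8.06) and at 8.00, 8.14, 7.74 and 8.02 in the T164A libraries, with a vector median of 3.79. NRN1, or neuritin, which promotes outgrowth of neurites, was 2.82 higher in the T164A libraries, where it read 9.72, 9.67, 9.61 and 9.66, against 6.43 to 7.20 in wild type. CNTNAP2, a neurexin-like adhesion protein, was at 9.22 to 9.43 in the T164A libraries and at most 7.75 in wild type (median 7.56). CPLX1, a complexin that clamps vesicle fusion, had the reverse order (direct difference 1.22, SE 0.26, limma adjusted p = 0.00023). BSN and SYNGR1, proteins of the active zone and the synaptic vesicle, completed a set of 11 with LIN7A, RAB3A and RAB39B. This set was put together after the values were seen. The direct test called 5 of the 11 higher in T164A and 3 higher in wild type, shares near the 47.1% and 31.8% of all genes with both construct means at 6 or more. Of the 28 neuronal and neuroendocrine genes listed, MAPT alone met the rule.

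Cyclic AMP signalling was represented by 8 members, grouped after their values were seen. PDE10A, a phosphodiesterase that hydrolyses cyclic nucleotides, lay at -0.95 to 1.61 in vector (median 0.68), 8.05 to 9.15 in wild type (median 8.72) and 8.82, 8.83, 8.84 and 8.81 in the T164A libraries. The T164A values sat inside the wild-type range, and the direct interval was -0.91 to 0.59. PDE3B was higher in T164A by 1.29 (wild type minus T164A -1.29, SE 0.19), and PDE9A showed a difference of 0.12 (SE 0.12, limma adjusted p = 0.404). Of 26 phosphodiesterase genes measured by symbol, these 3 met the rule (11.54%, against 2.14% of all symbols). The subunits of protein kinase A went apart. PRKACB, a catalytic subunit, was at 11.66 to 12.61 in wild type and 8.88 to 9.15 in the T164A libraries (vector 6.83 to 7.22), while PRKAR2B, a regulatory subunit, was at 6.38 to 7.31 in wild type and 9.09 to 9.32 in the T164A libraries (vector 0.01 to 3.11). The anchoring protein AKAP12 and the adenylyl cyclase ADCY1 were higher in T164A, by 2.99 (wild type minus T164A -2.99, SE 0.12) and by 1.77 (-1.77, SE 0.13). PKIB, an inhibitor of protein kinase A, had a direct difference of -0.46 (SE 0.20, limma adjusted p = 0.0541).

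The remaining leading members had diverse roles. BEND4, which carries a BEN domain, was at most 1.17 in vector and at 7.73 to 8.78 in wild type (median 8.35). It read 9.70, 9.62, 9.78 and 9.46 in the T164A libraries, above all wild-type libraries. LONRF2, a RING finger ubiquitin ligase, was at 7.62 to 8.68 in wild type and at 9.12 to 9.30 in the T164A libraries. Its direct difference of -0.93 (SE 0.43, limma adjusted p = 0.0633) was called without vector 3, a library at -1.38 for this gene (adjusted p = 5.26e-05), and with array weights (0.0321). BCHE, or butyrylcholinesterase, was at 6.71 to 7.90 in wild type (median 7.35) and at 7.71, 7.69, 7.91 and 7.69 in the T164A libraries, from at most 1.33 in vector. PKNOX2, a TALE homeodomain factor, had a direct difference of -1.37 (SE 0.56, adjusted p = 0.0356 by limma). That call was lost without any 1 of the T164A libraries or without wild type 13 or 14 (adjusted p = 0.0561 to 0.0755), and also under quantile normalization (0.0794), with no variance trend (0.103) and under a minimum fold of 1.2 (0.0679). COLEC12, a collectin that acts as a scavenger receptor, was at 0.63 to 2.49 in vector, 7.28 to 7.90 in wild type (median 7.85) and 8.51, 8.73, 8.59 and 8.59 in the T164A libraries. Every T164A library lay above every wild-type library (direct difference -0.90, SE 0.29, limma adjusted p = 0.0083). SLC43A1, a transporter of large neutral amino acids, was at 2.68 to 3.75 in vector (median 3.38), 9.44 to 10.39 in wild type (median 10.23) and 9.55, 9.46, 9.32 and 9.52 in the T164A libraries. It was the highest ranked of 17 solute carrier members, of 363 measured (4.68%, against 2.14% of all symbols).

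COL6A1 and COL6A2, genes for chains of collagen VI, matched closely across the construct groups. COL6A1 lay at 6.21 to 6.93 in vector (median 6.79), 10.11 to 10.94 in wild type (median 10.82) and 10.76, 10.78, 10.43 and 10.75 in the T164A libraries. COL6A2 lay at 5.99 to 6.49, 8.86 to 9.74 and 9.31 to 9.71 in the same order. The construct groups overlapped for both, with direct intervals of -0.24 to 0.31 and -0.32 to 0.26. They were the only members among 30 collagen and matrix genes, of which limma called 4 higher and 14 lower in wild type and 15 higher and 10 lower in T164A against vector (all symbols 21.0%, 24.5%, 37.1% and 27.2% in the same order). MMP16, a membrane-bound metalloprotease, was higher in wild type than T164A by 1.87 (SE 0.17). TBX3, a T-box factor, and HES6, of the HES family, were also higher in wild type, by 1.59 (SE 0.09) and 1.57 (SE 0.16). SEMA6A, a semaphorin of axon guidance, was higher in T164A (wild type minus T164A -2.52, SE 0.18).

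In the glycolysis and hypoxia list, 4 of 29 genes met the rule as higher, as did 2.14% of all symbols. Limma called 17 of the 29 higher and 7 lower than vector in wild type, and 17 and 7 in T164A. Over all symbols the shares were 21.0% and 24.5% in wild type and 37.1% and 27.2% in T164A. PGK1 was at 11.48 to 11.73 in vector (median 11.60), 12.31 to 12.85 in wild type (median 12.66) and 13.44, 13.37, 13.41 and 13.42 in the T164A libraries, with no overlap between any groups. GPI, the isomerase of glucose 6-phosphate, was 1.22 and 1.70 above vector. EGLN3, an oxygen-sensing prolyl hydroxylase, was 1.60 and 2.56 above it. P4HA1, a prolyl hydroxylase of collagen, was higher in wild type than in T164A (0.66, SE 0.09, limma adjusted p = 7.97e-07). Of 29 oxidative stress genes 3 met the rule: the superoxide dismutase SOD1, the peroxiredoxin PRDX2 and the glutathione transferase GSTM3. GSTM3 was 2.78 and 3.44 above vector, PRDX2 1.24 and 1.97, and SOD1 1.04 and 2.41. All 3 were higher in T164A than in wild type, with SOD1 at 10.20 to 10.78 in wild type and 11.98, 11.93, 11.96 and 11.96 in the T164A libraries. Over the whole list limma called 13 higher and 4 lower than vector in wild type, and 21 and 5 in T164A. The direct test called 18 of the 29 higher in T164A and 7 higher in wild type. Among all genes with both construct means at 6 or more these shares were 47.1% and 31.8%.

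Mitochondrial enzymes, several of them of fatty acid and branched-chain amino acid breakdown, formed a set of 9, again put together after the values were seen. Their differences ran from 1.06 to 2.23 in wild type and from 1.28 to 2.05 in T164A. PCCB, a subunit of propionyl-CoA carboxylase, was at 8.44 to 8.74 in vector (median 8.51), 9.86 to 10.53 in wild type (median 10.39) and 10.45, 10.31, 10.18 and 10.39 in the T164A libraries. The construct groups overlapped, with a direct interval of -0.20 to 0.18. ACADSB, a short branched-chain acyl-CoA dehydrogenase, had an interval of -0.20 to 0.23. The direct test called 5 of the 9 higher in T164A and 1, SUCLG2, higher in wild type, beside the 47.1% and 31.8% of all genes with both construct means at 6 or more. Protein folding in the secretory pathway was represented by PDIA4, SDF2L1, CRELD2, MANF and PPIB. PDIA4, a disulfide isomerase, lay at 10.41 to 10.58 in vector, 11.48 to 12.12 in wild type (median 11.95) and 12.04, 12.03, 11.92 and 12.03 in the T164A libraries, with a direct interval of -0.27 to 0.07. SDF2L1 was higher in T164A (wild type minus T164A -1.47, SE 0.14). Of 26 ATF4 and unfolded protein response genes, 3 met the rule as higher, as did 2.14% of all symbols. Limma called 15 of the 26 higher and 8 lower than vector in wild type, and 17 and 8 in T164A. The shares of all symbols were 21.0% and 24.5% in wild type and 37.1% and 27.2% in T164A. INSIG1, which restrains cholesterol synthesis, was the 1 member of 22 genes of that pathway. NR4A1, a nuclear receptor induced by stimulation, was the 1 member of 25 immediate early genes.

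The direct test divided the higher members. Limma called 226 of the 432 (52.3%) higher in T164A and 86 (19.9%) higher in wild type, and it called neither for 120 (27.8%). Over all symbols, 26.7% were called higher and 35.1% lower in wild type than in T164A. Among the 10713 genes with both construct means at 6 or more, 47.1% were higher in T164A, 31.8% higher in wild type and 21.0% not called. For 76 higher members the 95% interval of the direct difference lay between -0.5 and 0.5, and for 205 between -1 and 1. The construct groups did not overlap in 272 (63.0%), a share between the 52.4% of all symbols and the 67.5% of those 10713 genes.

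**Figure D2:**
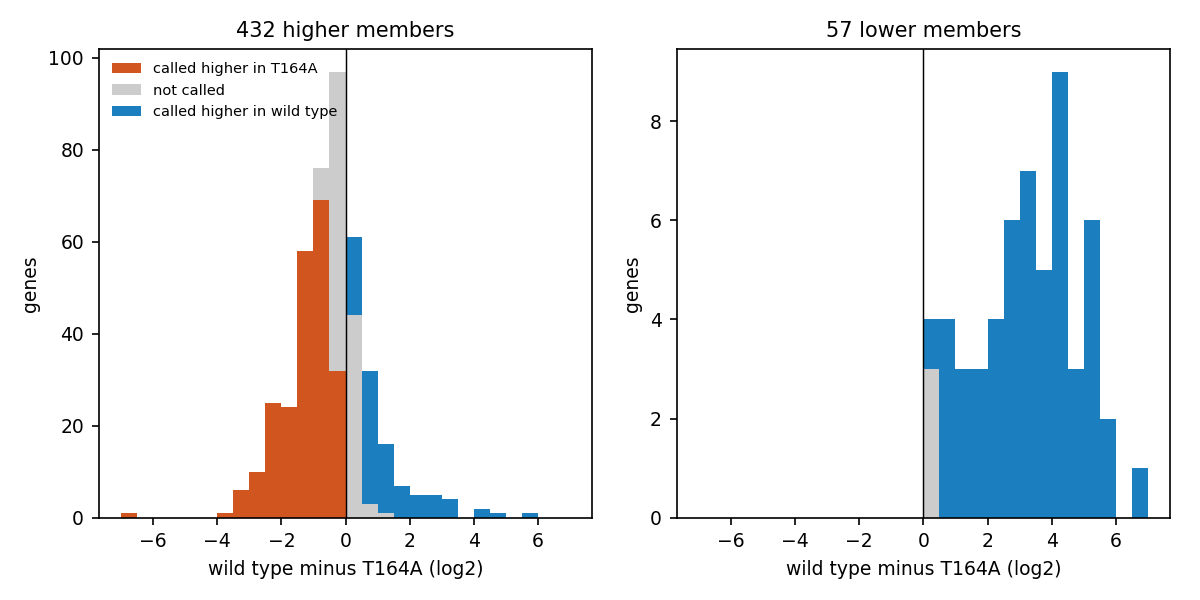
Number of higher and lower members by direct difference, wild type minus T164A in log2 units, coloured by the limma call at an adjusted p of 0.05. Higher members spread to both sides of 0, from -6.68 to 5.78, and all lower members lie to the right of 0.

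The extremes were far apart. AMOT, angiomotin, which binds the co-activator YAP, was at 5.92 to 6.57 in vector (median 6.22), 7.23 to 7.92 in wild type (median 7.61) and 14.23, 14.24, 14.26 and 14.20 in the T164A libraries. The direct difference was -6.68 (SE 0.12, limma adjusted p = 9.28e-24), so AMOT met the rule through a difference of 1.35 in wild type and one of 8.03 in T164A. DTNA, VASH1, ONECUT2 and GPC4, which encode a dystrobrevin, a tubulin carboxypeptidase, a homeodomain factor and a cell-surface proteoglycan, were also higher in T164A, by 3.25 to 3.79 (wild type minus T164A -3.79 to -3.25). At the other end, PRUNE2 was at 11.12 to 11.99 in wild type and 7.27, 7.13, 7.41 and 7.11 in the T164A libraries (direct difference 4.47, SE 0.23). The ETS factor ETV1 was at 9.10 to 10.05 in wild type and at most 6.61 in the T164A libraries (3.48, SE 0.24). The smallest direct differences belonged to OSCP1, ABHD14A, DDAH1, SCCPDH and PNKD, all within 0.01 of 0. DDAH1, which degrades methylated arginines that inhibit nitric oxide synthase, was at 7.76 to 8.17 in vector, 9.22 and above in wild type (median 9.78) and 9.69, 9.70, 9.84 and 9.71 in the T164A libraries. Its direct interval of -0.22 to 0.21 was the narrowest of these.

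**Figure D3:**
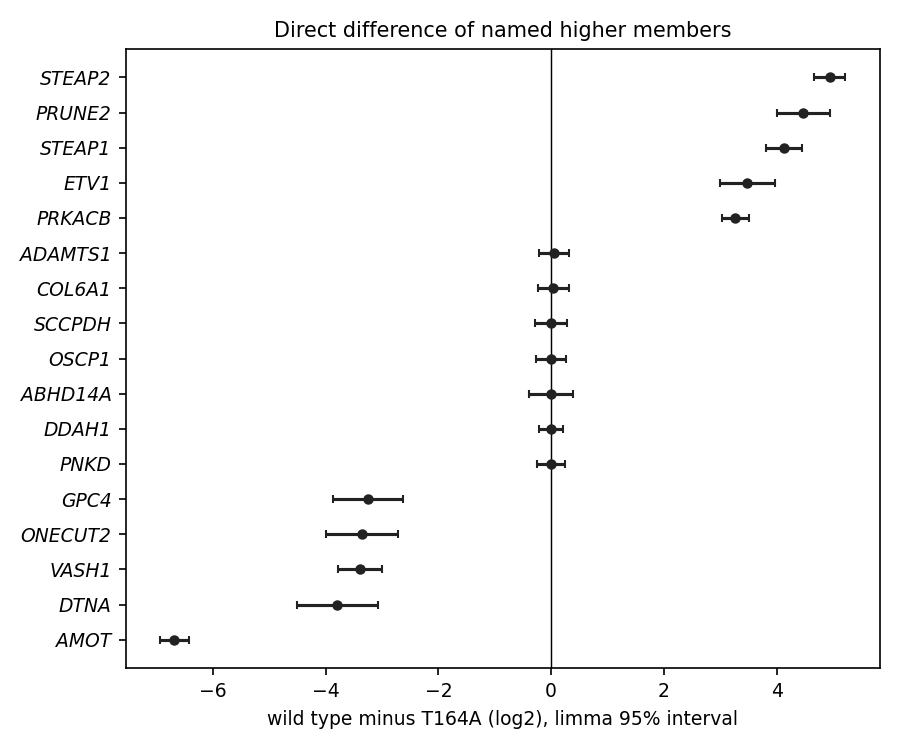
Direct difference, wild type minus T164A in log2 units, with its limma 95% interval, for the higher members at either end and nearest 0, and for ADAMTS1 and COL6A1. The 7 intervals in the middle span 0, from ADAMTS1 down to PNKD, and STEAP2 and AMOT mark the ends shown.

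Genes lower in both construct groups included many genes of squamous differentiation and of the epithelial barrier. Of 30 squamous and cornified envelope genes measured, 16 met the rule as lower and 0 as higher. The list was written with earlier results of these data known, so the count is not independent evidence of its direction. Over the whole list limma called 26 lower and 1 higher in wild type (median -1.04) and 30 lower in T164A (median -5.78, or -5.38 with genes under the level of 3 reads at their bound), against 24.5% and 27.2% of all symbols called lower. The differences were unequal. In wild type the 57 members differed from vector by -2.36 at the most (median -1.12), and in T164A by -1.24 to -6.82 or lower, with a median of -4.57, or -4.55 with genes under the level of 3 reads at their bound. In every one of the 57 the larger difference was in T164A, and in 10 the T164A mean was below the level of 3 reads.

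SPRR3, an envelope precursor, had the largest smaller difference. It lay at 8.26 to 10.57 in vector (median 10.22), 6.96 to 7.94 in wild type (median 7.31) and 3.70, 3.42, 4.29 and 4.27 in the T164A libraries. The 3 groups were in separate ranges, and wild type exceeded T164A by 3.42 (SE 0.34, limma adjusted p = 2.01e-09). SPRR2A went from 5.78 to 8.19 in vector (median 7.85) to 4.27 to 5.77 in wild type (median 5.24) and to 0.14, 1.84, 0.53 and 0.69 in the T164A libraries, all under the level of 3 reads. CRNN, or cornulin, another envelope protein, lay at 7.07 to 8.96 in vector, 6.25 to 6.76 in wild type and 1.92, 1.83, 2.45 and 0.99 in the T164A libraries. SPRR2E, SPRR1A, SPRR1B and SPRR2D brought the SPRR members to 6 of 11 measured, beside 0.283% of all symbols. The SPRR2 genes are close copies, so their separate values are uncertain.

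**Figure D4:**
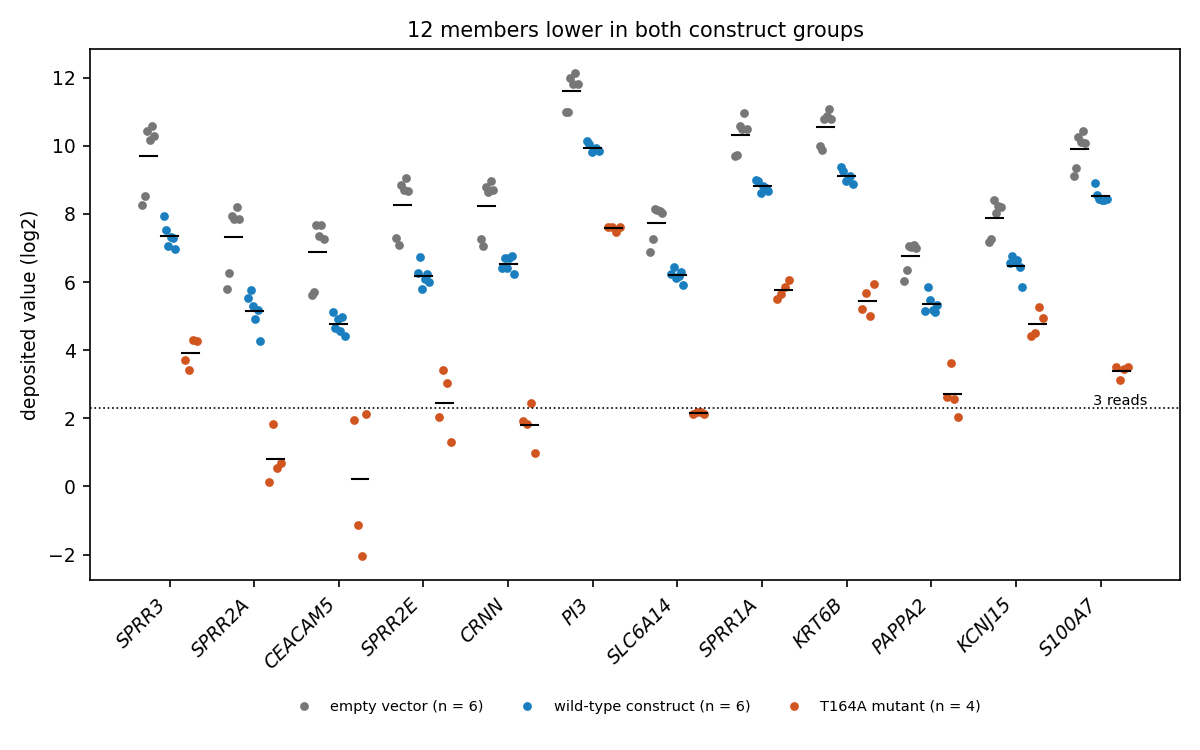
Deposited log2 values of the 12 lower members with the largest smaller difference from the vector, one point per library, with group means as black lines and the level of 3 reads dotted. In each gene the wild-type libraries lie between the vector and the T164A libraries, and the lowest vector points of most genes sit apart from the other vector points.

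S100A8 and S100A9, the subunits of calprotectin, bind calcium and zinc. S100A9 lay at 12.64 to 13.72 in vector (median 13.52), 11.74 to 12.29 in wild type (median 11.90) and 7.47, 7.60, 7.46 and 7.50 in the T164A libraries. S100A7, psoriasin, read 3.52, 3.14, 3.44 and 3.52 in the T164A libraries, 5.12 below wild type (SE 0.19). PI3, or elafin, an inhibitor of elastase, lay at 10.98 to 12.13 in vector (median 11.81), 9.81 to 10.14 in wild type (median 9.91) and 7.61, 7.61, 7.48 and 7.63 in the T164A libraries. SLPI, of the same fold, SPINK5, which inhibits kallikreins, the cystatin CSTA, and SERPINB3 and SERPINB4, which were 2 of 13 SERPINB genes measured, are other inhibitors of proteases among the lower members, named after their values were seen. The kallikreins KLK5, KLK6, KLK7 and KLK10, proteases active in skin, were 4 of 15 measured. Beside these family counts, 0.283% of all symbols met the rule as lower. KLK5 lay at 11.09 to 11.55 in vector (median 11.12), 9.94 to 10.45 in wild type and 8.56 to 8.89 in the T164A libraries.

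Other lower members serve as surface proteins, channels and mediators. CEACAM5, an adhesion molecule of epithelia, was at 5.62 to 7.67 in vector (median 7.31), 4.40 to 5.11 in wild type and 1.96, -1.15, -2.05 and 2.11 in the T164A libraries. SLC6A14, an amino acid transporter, was at 6.88 to 8.14 in vector (median 8.05), 5.92 to 6.44 in wild type and 2.11 to 2.18 in the T164A libraries. KRT6B, a keratin of activated epidermis, was the 1 lower member of 28 basal markers, at 9.87 to 11.07, 8.88 to 9.39 and at most 5.94. KCNJ15, a potassium channel, and PAPPA2, a protease of insulin-like growth factor binding proteins, completed the first 12. FZD10, a WNT receptor, was at 9.06 to 9.68 in vector, 8.22 to 8.64 in wild type and 7.41 to 7.70 in the T164A libraries. IL1B, the cytokine interleukin-1 beta, was at 8.25 to 8.57 in vector (median 8.36), 7.18 to 7.65 in wild type (median 7.26) and 6.67, 6.77, 7.17 and 6.85 in the T164A libraries. The direct test called 54 of the 57 higher in wild type, against 26.7% of all symbols. Of 11055 genes with a vector mean of 6 or more, 65 differed by -1 or lower in wild type and 1595 in T164A. A gene that passed both cuts was thus likely to be lower in T164A. This count and the lack of overlap given below follow in part from the rule and are a description. The 3 it did not call were SCN3B, SH3TC2 and IZUMO1, with direct differences of 0.15, 0.29 and 0.41 and upper interval bounds of 0.60, 0.77 and 0.85. IZUMO1 was called under quantile normalization (limma adjusted p = 0.00288) and without wild type 18 (0.0292), and SH3TC2 under quantile normalization (0.019), with array weights (0.0493) and without T164A 93 (0.0499). The construct groups did not overlap in 51, each with wild type higher, as held for 21.2% of all symbols and 25.8% of the 10713 genes.

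The number of lower members depended on which vector libraries were used. Vector 1 held the lowest vector value for 31 of the 57 and vector 2 for 24, and their median deviations from the vector mean were -0.39 and -0.41, against 0.13 to 0.30 in the other 4. Against vector 1 and 2 alone 7 genes met the rule as lower, 5 of them among the 57. Without vector 1 and 2, 95 genes did, with all 57 included. With vector 1 and 2 alone SPRR3 was 1.04 below vector in the smaller comparison. The higher members moved less, with 407 and 461. The squamous genes outside the members had deviations of -0.02 and 0.04 in vector 1 and 2, and the mesenchymal genes outside the members 0.26 and 0.18. Their part in the result was not tested.

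In the genome, as ordered in the RefSeq annotation of GRCh38.p14, 14 of 56 located lower members (25%) had another lower member as the next gene. Among 425 located higher members, 52 (12.2%) had another higher one. Of all symbols, 0.283% met the rule as lower and 2.14% as higher. The share that gene order alone would give was not computed. The longest run of members within 5 genes of each other was SPRR1A, SPRR3, SPRR1B, SPRR2D, SPRR2A and SPRR2E, beside a run of RPTN, CRNN and LCE3D and one of PGLYRP3, S100A9, S100A8 and S100A7. The 4 kallikreins formed another run. Neighbours of 1 gene cluster are related copies and are not independent members.

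RefSeq promoters, here the 250 bases before the start of a gene on GRCh38.p14, were matched for 40 lower and 329 higher members. The values of the study were made on GRCh37, and only gene names link them to these sequences. The sequences below are those of the first 4 lower members by size that hold TATAAA or TGANTCA, shown because these letters were more frequent in the promoters of lower members than in either background given below. They run 5′ to 3′ on the strand of the gene, and capitals mark these 2 motifs.
SPRR3 (chr1:153001499-153001748, plus strand): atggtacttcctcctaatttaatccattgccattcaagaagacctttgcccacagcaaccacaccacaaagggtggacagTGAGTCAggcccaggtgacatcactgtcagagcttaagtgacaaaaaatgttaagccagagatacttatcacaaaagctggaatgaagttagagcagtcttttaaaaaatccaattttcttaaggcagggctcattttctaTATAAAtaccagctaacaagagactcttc
SPRR2A (chr1:153057513-153057762, minus strand): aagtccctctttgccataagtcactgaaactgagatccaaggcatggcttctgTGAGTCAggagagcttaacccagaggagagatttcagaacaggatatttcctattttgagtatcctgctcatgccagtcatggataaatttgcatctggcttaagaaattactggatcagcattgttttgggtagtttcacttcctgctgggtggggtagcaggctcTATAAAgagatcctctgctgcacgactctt
CRNN (chr1:152414264-152414513, minus strand): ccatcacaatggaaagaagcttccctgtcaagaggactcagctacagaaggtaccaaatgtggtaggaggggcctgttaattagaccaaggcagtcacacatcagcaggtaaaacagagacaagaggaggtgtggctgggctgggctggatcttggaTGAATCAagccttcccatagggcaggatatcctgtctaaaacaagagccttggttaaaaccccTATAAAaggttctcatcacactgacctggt
SLC6A14 (chrX:116436356-116436605, plus strand): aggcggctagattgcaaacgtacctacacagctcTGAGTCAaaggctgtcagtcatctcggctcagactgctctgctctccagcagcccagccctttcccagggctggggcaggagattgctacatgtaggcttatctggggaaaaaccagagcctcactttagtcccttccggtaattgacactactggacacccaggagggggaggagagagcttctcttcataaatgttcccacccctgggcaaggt

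The first 3 hold TATAAA close to the gene start and TGANTCA further away, and SLC6A14 holds TGANTCA alone. TATAAA was found in 12 of 40 lower members (30%), in 5.47% of the higher, in 9.13% of the 14748 promoters of all genes measured and in 5.32% of the 10003 of genes with a group mean of 6 or more. TGANTCA, the letters of the AP-1 site, was found in 13 of 40 lower members (32.5%) and 2.13% of the higher, against 5.13% and 3.96% in those backgrounds. Of these 13, 4 were SPRR genes, which share sequence by descent, and the others included CRNN, RPTN, SCEL, CLCA2, LCN2, KCNJ15, SLC6A14 and TRPV3. The median number of CG pairs was 3 in lower members (quartiles 1 and 6), 23 in higher members (13 and 29), 17 over all and 21 at a group mean of 6 or more. GGGCGG was in 25% and 69.0%, against 56.4% and 68.0%, and CACCC in 72.5% and 62.9%, against 57.9% and 58.4%. Both strands were searched, and matches of different motifs may overlap. A match describes the letters only.

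Among the wild-type libraries, 1 was low for nearly all higher members. Wild type 14 held the lowest wild-type value for 417 of the 432 higher members, and its median deviation from the wild-type mean was -0.48 over all of them and -0.61 over the 85 with differences of at least 3. Wild type 18 held the highest value for 263, with a median deviation of 0.24. The 18 luminal markers outside the members with a group mean of at least 6 deviated by -0.63 and 0.26 in these libraries, and the 27 such basal markers by 0.22 and -0.22. Lower members deviated by 0.18 in wild type 14 and by -0.22 in wild type 18. The part of these libraries' luminal and basal levels in the results was not tested. Over the higher members the spread was smaller in the T164A libraries (median SD 0.13, against 0.27 in wild type and 0.23 in vector). Over the lower members it was larger there (0.364, against 0.220 in wild type and 0.313 in vector). Over all genes with a group mean of 6 or more it was 0.129, against 0.115 and 0.111. T164A 93 held the lowest value for 234 higher members and the highest for 125, with a median deviation of -0.07, and the other 3 libraries held the highest for 60 to 142. Each vector library held the highest value for 40 to 100 of the higher members and the lowest for 57 to 109. Without wild type 14 and T164A 93 together, 476 genes met the rule as higher, 427 of them among the 432, and 73 as lower, 56 of them among the 57.

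**Figure D5:**
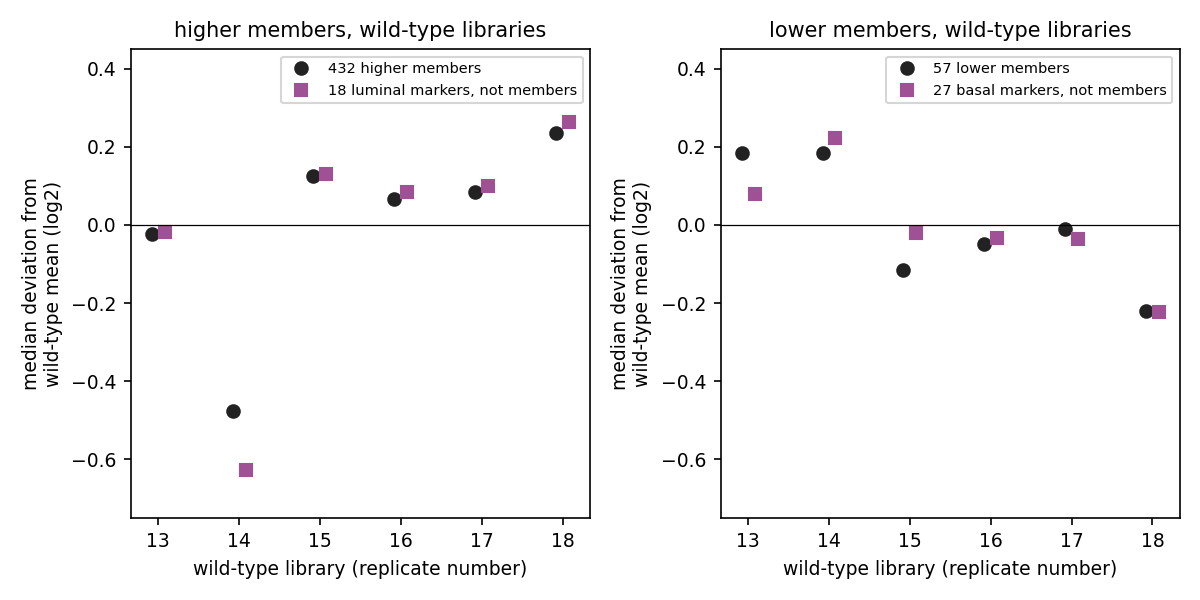
Median deviation from the wild-type mean (log2) in each of the 6 wild-type libraries, for the members (circles) and for luminal or basal markers outside the members (squares). Wild type 14 is lowest and wild type 18 highest on the left, and on the right wild type 18 is lowest.

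At the edge of the rule, WNK3 and ZBED1 were just inside as higher, with smaller differences of 1.0029 and 1.0031, and GBAS and UGDH just outside, at 0.998 and 0.997. LCN2 and SH3TC2 were just inside as lower, at -1.0025 and -1.0002, and FUT3 and ATP10B just outside, at -0.998 and -0.994. No gene met the rule in the lists of interferon response, cell cycle, mesenchymal, BMP and TGF-beta, IGF, histone methylation, p53, imprinted, antigen presentation, tight junction, Y-linked, and fibroblast, endothelial and leukocyte genes. The remaining lists had 1 or 2 members each.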

How the data were processed

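Log2 values for 16 libraries, 1 column each over 21594 rows, are what the authors deposited. GRCh37, TopHat2 2.0.4, Cufflinks 2.0.2, CASAVA 1.8.2 and DESeq appear in the submitters' processing notes without roles or order, and no source used here states how the log2 values were made. Above a value of 11.5 the back-transformed values fall on equal steps once an offset of 1.89 is subtracted (100% within 0.05 of a step), and the step size gave the depth. Lower values carry extra scatter, so counts were not recovered and count models were not used. The level of 3 reads covers counting error only.

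For the 304 symbols on 1732 rows the row with the highest mean was kept, leaving 20166. The rule was applied to these. The direct difference was tested in 1 limma model of all libraries (R 4.3.3, limma 3.58.1, moderated variances with a trend and 13 residual degrees of freedom, two-sided, Benjamini-Hochberg adjustment over 20166 symbols, threshold 0.05), without a filter on low values, and the script was tested on simulated data. The larger mean was required to reach 6 in each of the 2 comparisons with the vector.

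Genes were named by a rule: the 12 first members in each direction by smaller difference, those with the smallest and largest direct differences, up to 4 per list, and those at the edge of the rule. Others named in the text, and the sets by role, were chosen after their values were seen. The members and the 30 gene lists (792 of 801 places measured) were chosen with earlier results of these data known. Library groups come from the labels, which give no batch. The overexpressed gene and some other genes that met the rule are not reported here. Promoters and gene order are from RefSeq (GRCh38.p14). Alternatives were quantile normalization, other thresholds of the rule, each library or set of libraries left out, and other settings of the fit.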

Additional observations from a re-analysis of the deposited data

Results flagged for a closer look

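Within groups of 4 to 6 libraries, 225 sets of values were examined for 1 library set apart from the others of its group by Dixon's criterion. The sets were of the named genes and of the median levels of the higher and lower members. In 32 of them, all of named genes, a library was set apart. Chance flags about 1 in 20 sets, and sets that share libraries are not independent.

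Wild type 14 was the lowest of its group in 18 of them. Its values were 8.94 for PRAME, 9.25 for KIF1A, 8.28 for MAGEA3, 9.44 for SLC43A1, 9.22 for DDAH1, 11.12 for PRUNE2, 10.69 for STEAP1 and 9.10 for ETV1. They were 10.34 for HOXB13, 10.55 for SORD, 10.11 for COL6A1, 8.86 for COL6A2, 7.17 for MAPT, 6.46 for SEMA6A, 9.31 for HES6, 10.20 for SOD1, 11.48 for PDIA4 and 8.86 for CRELD2. Wild type 18 was set apart as the lowest for KCNJ15, at 5.85, and wild type 13 as the highest for S100A7, at 8.91.

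T164A 93 was set apart as the highest for BCHE (7.91) and DDAH1 (9.84) and as the lowest for PI3 (7.48), COL6A1 (10.43), GPI (12.58) and PDIA4 (11.92). T164A 91 was the highest for ADAMTS1 (11.48) and GSTM3 (9.26). Among the vector libraries, vector 3 was the lowest for LONRF2 (-1.38) and vector 5 for ONECUT2 (2.08), while vector 5 was the highest for PDIA4 (10.58) and vector 1 for INSIG1 (9.48).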

How the results depend on the processing

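Quantile normalization moved the median difference of the 11167 genes with means of 6 or more by -0.17 in T164A against vector. For wild type against T164A the shift was 0.14. It gave 300 higher and 141 lower members, 297 and 50 of them shared with the main sets. Of its higher members 144 were called higher in T164A and 71 in wild type, against 226 and 86 in the main fit. Of its lower members 126 were called higher in wild type, against 54 in the main fit. A minimum difference of 1.5 left 237 and 8 members and 2 left 160 and 4, with 61 and 39 called higher in wild type and 107 and 70 called higher in T164A. A minimum level of 8 left 206 and 34 members (80 and 104 called), a level of 5 gave 532 and 65, and reading the level on the largest of the 3 group means gave 601 higher members and 348 called higher in T164A. Vector 1, 2 and 5 alone gave 400 higher and 38 lower members, 390 and 34 of them shared with the main sets. Vector 3, 4 and 6 alone gave 476 and 94, with 423 and 56 shared. Vector 1 and 2 alone gave 7 lower members, 5 of them shared, and their removal gave 95. The last 2 alternatives were chosen after the data were seen. Leaving out 1 library gave 414 to 474 higher and 46 to 73 lower members. For the direct difference in the named genes, no value called in the main fit or in an alternative changed sign between them. Signs of uncalled differences near 0 could change and were not counted. Against the threshold 2101 values kept their side, 36 gained a call and 19 lost one. Beside those in the text, MALL, IL1B, NR4A1 and UGDH lost their call under a minimum fold of 1.2. NR4A1 (adjusted p = 0.101) and UGDH (0.270) also lost it under quantile normalization, MALL without T164A 93 (0.0559), and MALL and UGDH without wild type 14 and T164A 93 together (0.069 and 0.0771). No paired analysis was possible because the groups share no replicate numbers. At this depth genes under the level of 3 reads give bounds only.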
